A study of Mus musculus with 18 samples.

Results

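The 44 genes described here encode proteins that copy DNA and supply its building blocks. They were named as a list of mouse symbols, and a probe counted as theirs when its transcript accession on the array matched that symbol in RefSeq. All 44 were on the array and all 44 passed the filter on dim probes, among 20813 genes tested, and 43 were well above background in all 18 samples (Orc1 in 15). At oxygen 1, 38 of 44 fell in PHD3 knockout (KO) macrophages and 39 of 44 in wild-type (WT) macrophages. Their medians were -1.47 and -1.41 on the log2 scale, and 18.8% and 18.5% of all genes tested fell. Under starvation 25 fell in KO and 24 in WT cells, with medians of -0.58 and -0.55, against 6.82% and 6.36% of all genes. None of the 44 passed the test between KO and WT cells in any condition. Nearly no gene did: of all 20813 tested, 1 passed when starved and 0 at oxygen 1 or in controls. Tyms rose when starved. Gins3, Pola2, Pold3 and Pcna passed the test in none of the 4 comparisons of a stress with its control. Orc6 passed only in WT cells at oxygen 1. Not passing does not show that a member was unchanged.

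Replication starts where the origin recognition complex, with Cdc6 and Cdt1, loads the MCM ring onto DNA, and Cdc45 and GINS then turn the ring into the unwinding helicase. Primase and polymerase alpha make primers, polymerases epsilon and delta extend them with the Pcna clamp, and ribonucleotide reductase, thymidylate synthase, thymidine kinase and dUTPase shape the deoxynucleotide pool. Many of these genes are transcribed mainly in dividing cells, under the E2F family of factors, and marrow precursors divide in culture before they become macrophages.

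Samples were macrophages grown for 7 days from femoral marrow with macrophage colony stimulating factor, from male C57BL/6J mice aged 8 weeks. The 6 groups of 3 samples were KO (PHD3-/-) cells at oxygen 1 with control feeding, KO cells at oxygen 20 starved, KO cells at oxygen 20 with control feeding (KO controls), and WT cells in the same 3 states. PHD3, encoded by Egln3, is an oxygen-dependent prolyl hydroxylase of hypoxia-inducible factor, and the labels give the oxygen numbers with no unit. The sources used here do not say if cells or mice were starved, for how long, or how the knockout allele was built. All groups share the culture and strain. The design text names 3 mice each, and it is not given if samples with the same number share a mouse, so p-values measure the spread between these samples.

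A total of 20 arrays on 5 slides gave between 56.1% and 65.4% of spots well above background, a 75th percentile of the processed signal between 933.8 and 1556, and 0 saturated spots. The number of samples limits the precision. A value of 0 below is the 75th percentile of the array, and values of different genes come from different probes, so their levels are not compared. Egln3 read 2.71 to 2.98 in KO cells at oxygen 1, -2.61 to -2.29 in starved KO cells and -4.20 to -3.76 in KO controls, against 2.83 to 3.00, -2.36 to -2.19 and -3.77 to -3.10 in the WT groups. Where this probe lies relative to the deleted part is not given, so it does not check the genotype. Of 9 macrophage markers, 8 were matched (Cd68 was not), and all 8 were well above background in every group. Over all genes at oxygen 1, 18.8% fell and 21.9% rose in KO and 18.5% and 21.0% in WT cells. The shares when starved were 6.82% and 7.29% in KO and 6.36% and 6.6% in WT cells. Of 8 tested markers of neutrophils and their precursors, 5 fell and 1 rose at oxygen 1 in each genotype, and 4 fell in starved KO and 5 in starved WT cells. Their summed signal, in multiples of the 75th percentile, was 5.40 to 9.96 in KO cells at oxygen 1, 5.74 to 9.18 in starved KO cells and 9.78 to 15.9 in KO controls. It was 6.44 to 10.1 in WT cells at oxygen 1, 7.27 to 9.40 in starved WT cells and 12.1 to 18.9 in WT controls. The median log2 change of that list was -0.63 in KO and -0.90 in WT cells at oxygen 1, and -1.21 and -1.31 when starved. By median it fell further when starved, whereas the members fell further at oxygen 1. In KO cells its summed signals at oxygen 1 and in controls overlapped. Of 3 tested lymphocyte markers, at a summed signal of at most 0.738, 2 fell in each of the 4 comparisons with controls. Of 3 tested markers of erythroid cells and megakaryocytes (Hba-a1, Pf4 and Epor), 1 fell and 1 rose in each of the 4 comparisons. In each group 2 of the 3 were well above background in all samples. The sum is of unlogged signals, so 1 bright gene can carry it, and it does not show a shift of these cell types. The summed signal of that list was 15.5 to 32.7 in KO cells at oxygen 1, 10.3 to 13.3 in starved KO cells and 6.37 to 7.23 in KO controls. It was 15.9 to 33.3 in WT cells at oxygen 1, 12.3 to 15.3 in starved WT cells and 5.78 to 6.39 in WT controls, with no overlap between stressed and control samples of a genotype. The part of these 3 lists in the members' results was not tested. In bulk RNA, fewer cells of a type and less RNA per cell cannot be told apart. The mean correlation of a sample with the others of its group was lowest in WT oxygen 1 replicates 2 and 3 (both r 0.989), followed by replicate 3 of the starved WT cells (0.990), replicate 3 of the KO controls (0.991) and WT oxygen 1 replicate 1 (0.991). Replicate 1 of the WT controls (0.992) was lowest in its group. Leaving out any 1 sample left 37 to 38 members that fell in KO and 37 to 40 in WT cells at oxygen 1. Without replicate 3 of the KO controls, replicate 3 of the starved WT cells and replicate 1 of the WT controls together, 38 members fell in KO and 40 in WT cells at oxygen 1, and 26 and 25 when starved. That fit kept WT oxygen 1 replicates 2 and 3, which had the lowest correlation.

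Since the members moved together, the promoters of those with the largest falls at oxygen 1 are shown, for 4 roles, with every E2F-type match in capitals. The sequences are RefSeq's on GRCm38.p6, from 250 bases before to 50 after the annotated start, read along the gene. The motifs searched on both strands were TTTCCCGC, TTTGGCGC, TTTCGCGC and TTTGCCGC. A match is a run of letters, not a measured binding site. The promoter of Tk1 (chr11:117825965-117826264, minus strand) holds no match.
Tk1: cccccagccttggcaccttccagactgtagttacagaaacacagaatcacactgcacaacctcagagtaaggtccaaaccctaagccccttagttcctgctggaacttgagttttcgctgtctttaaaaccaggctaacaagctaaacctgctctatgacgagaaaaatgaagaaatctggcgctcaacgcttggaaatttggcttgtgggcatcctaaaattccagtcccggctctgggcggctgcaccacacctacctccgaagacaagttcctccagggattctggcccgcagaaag
The promoter of Mcm5 (chr8:75109259-75109558, plus strand) holds a pair of matches that overlap, TTTCGCGC on the coding strand and TTTGGCGC on the other, whose first bases lie at -153 and -149 from the annotated start counted as 0.
Mcm5: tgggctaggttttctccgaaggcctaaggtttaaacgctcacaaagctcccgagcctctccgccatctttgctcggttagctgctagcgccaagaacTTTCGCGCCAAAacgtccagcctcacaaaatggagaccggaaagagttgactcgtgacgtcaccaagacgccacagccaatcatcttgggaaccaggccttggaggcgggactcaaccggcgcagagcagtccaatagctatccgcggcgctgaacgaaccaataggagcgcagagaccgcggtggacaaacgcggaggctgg
Uhrf1 has 2 annotated starts, and the window of the later one (chr17:56304063-56304362, plus strand) holds 1 match, at -185.
Uhrf1: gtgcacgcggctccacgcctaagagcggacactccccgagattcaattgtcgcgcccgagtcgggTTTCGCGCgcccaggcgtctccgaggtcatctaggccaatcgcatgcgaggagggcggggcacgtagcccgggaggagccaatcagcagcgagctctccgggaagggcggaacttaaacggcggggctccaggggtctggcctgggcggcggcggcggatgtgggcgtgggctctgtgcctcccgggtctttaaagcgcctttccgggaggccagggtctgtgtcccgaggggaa
The promoter of Orc1 (chr4:108579204-108579503, plus strand) holds 1 match on the other strand, at -27 from the start.
Orc1: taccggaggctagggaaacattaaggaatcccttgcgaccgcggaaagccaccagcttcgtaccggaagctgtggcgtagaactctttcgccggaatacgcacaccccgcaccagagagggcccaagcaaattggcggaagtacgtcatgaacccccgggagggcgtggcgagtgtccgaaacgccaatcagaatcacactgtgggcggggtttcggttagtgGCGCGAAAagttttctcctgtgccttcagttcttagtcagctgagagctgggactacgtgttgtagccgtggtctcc
For contrast, and chosen after its values were seen, the promoter of Gins3 (chr8:95633309-95633608, plus strand), which did not pass the test at oxygen 1, holds 1 match as well, at -41.
Gins3: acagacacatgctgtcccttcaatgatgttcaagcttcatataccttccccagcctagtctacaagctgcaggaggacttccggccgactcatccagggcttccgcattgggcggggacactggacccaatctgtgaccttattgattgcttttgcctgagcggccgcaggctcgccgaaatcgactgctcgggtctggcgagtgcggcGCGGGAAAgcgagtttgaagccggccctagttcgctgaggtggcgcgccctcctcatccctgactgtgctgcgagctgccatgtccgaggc

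Of the 44 members, 37 had a promoter in the table. An E2F-type match was present in 16 of these 37 (43.2%), against 704 of 27025 genes in the table (2.605%) and 4.32% of the tested genes. At oxygen 1, 14 of the 16 members with a match fell in each genotype, with medians of -1.55 in KO and -1.53 in WT cells, where 32.2% and 31.1% of all tested genes with a match fell. Of the 21 without a match, 17 fell in KO cells and 18 in WT cells, with medians of -1.20 and -1.22. Of all tested genes with a promoter, those with a match included, 22.2% and 21.7% fell. When starved, 9 of the 16 with a match fell in KO and 8 in WT cells, with medians of -0.64 and -0.45. Of the 21 members without one, 13 fell in starved KO and 12 in starved WT cells, with medians of -0.57 and -0.68. Of all tested genes with a promoter 7.95% and 7.38% fell. Members with and without a match were not compared by test. The CCAAT box (CCAAT) was in 23 members (62.2%, against 41.1% of all genes and 42.6% of the tested genes). The core of the hypoxia response element (ACGTG or GCGTG) was in 25 (67.6%, against 46.7% of all genes and 63.2% of the tested genes). The cell cycle homology region (TTTGAA) was in 6 (16.2%, against 20.2% of all genes and 14.9% of the tested genes).

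At oxygen 1, limma with Benjamini-Hochberg adjustment over all genes called 38 members lower in KO cells, where 18.8% of all genes fell, and 39 in WT cells, where 18.5% fell. No member rose, against 21.9% and 21.0% of all genes. The median of all genes was 0.031 in KO and 0.034 in WT cells. Falls of at least 2-fold were seen for 32 of the 44 members in KO and 33 in WT cells, against 5.15% and 4.87% of all genes. When starved, 25 members fell in KO cells, against 6.82% of all genes, and 24 in WT cells, against 6.36%. In each genotype 1 member rose when starved, against 7.29% of all genes in KO and 6.6% in WT cells. Few members were at least 2-fold lower when starved, 4 (9.09%) in KO and 5 (11.4%) in WT cells, against 1.57% and 1.66% of all genes. The comparisons with controls share those controls. In both stresses and both genotypes 22 members fell, 38 fell at oxygen 1 in both genotypes, and 11 of these fell in neither genotype when starved. The shares of all genes with these joint patterns were not counted.

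**Figure D1:**
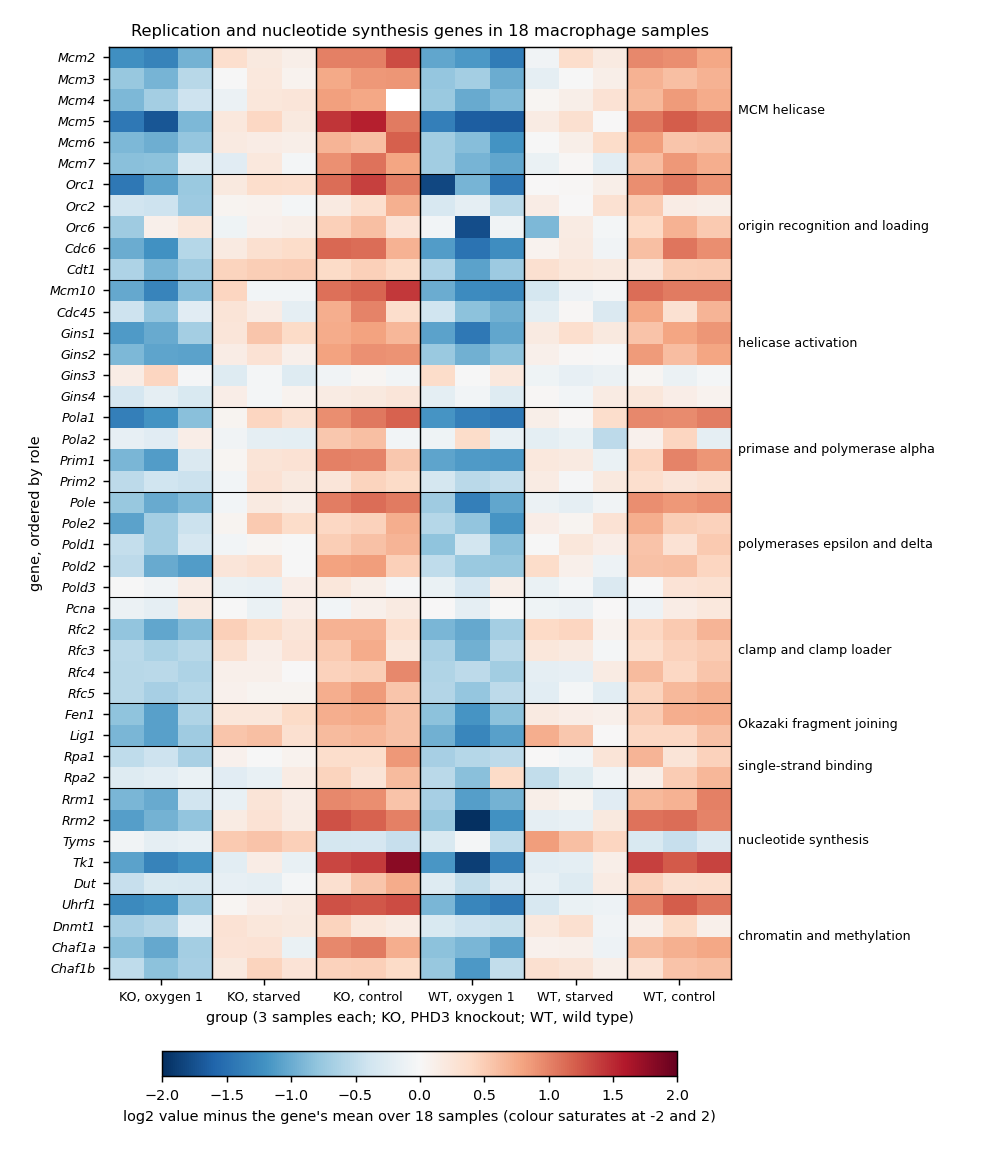
Log2 value of each of the 44 genes (rows, by role) in each of the 18 samples (columns, 3 per group), minus the gene's mean over all samples; blue is below and red above that mean, and the white cell is a missing value of Mcm4. The oxygen 1 columns of both genotypes are blue for most rows, the starved columns lie near 0 and the control columns are red, while Pcna, Pold3 and Gins3 hardly vary and Tyms is highest when starved.

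As a summary of each sample, the median over the members of the difference from each gene's mean was -0.76, -0.87 and -0.59 in KO cells at oxygen 1, 0.097, 0.21 and 0.13 in starved KO cells and 0.71, 0.75 and 0.66 in KO controls. In WT cells it was -0.69, -0.93 and -0.83 at oxygen 1, 0.015, 0.025 and 0.039 when starved and 0.58, 0.58 and 0.67 in controls. The 3 states did not overlap in either genotype. Groups were not spread evenly over slides. By first array, oxygen 1 samples were on slides 1, 2 and 3, and WT controls and starved WT samples on slides 2, 4 and 5. Where a slide held both groups, the median member difference for oxygen 1 minus control was -1.21 and -1.51 on 2 slides in KO and -1.53 on 1 slide in WT cells. Each within-slide value, here and below, sets 1 sample against 1 other. Starved minus control on single slides gave medians of -0.55 to -0.48 in KO cells and -0.58 to -0.57 in WT cells.

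**Figure D2:**
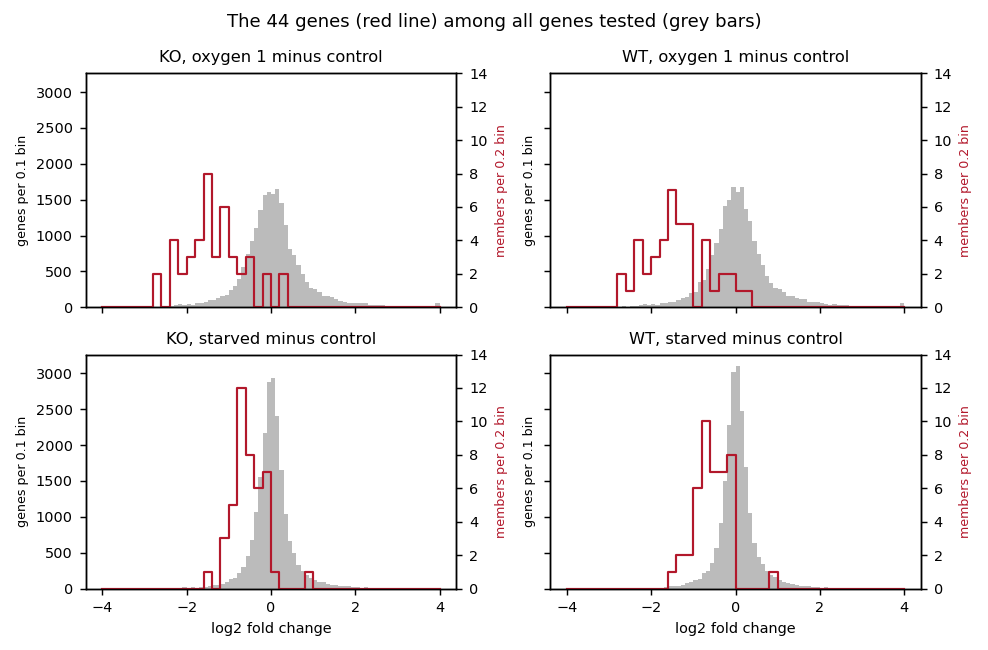
Distribution of the log2 fold change of the 44 genes (red line, right axis, bins of 0.2) over that of all 20813 genes tested (grey bars, left axis, bins of 0.1; values beyond the axis are drawn in the outermost bins), for KO (left) and WT cells (right). At oxygen 1 (upper panels) the members centre on -1.47 in KO and -1.41 in WT cells while all genes centre near 0; when starved (lower panels) they centre on -0.58 and -0.55.

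The 6 subunits of the MCM helicase, the ring that unwinds DNA ahead of the fork, fell in all 4 comparisons with controls. Their median fall was -1.64 in KO and -1.63 in WT cells at oxygen 1, and -0.82 and -0.71 when starved. Mcm5 in KO cells read -0.46, -0.75 and 0.078 at oxygen 1, 1.19, 1.38 and 1.16 when starved and 2.40, 2.52 and 2.01 in controls. WT samples had Mcm5 at -0.40, -0.67 and -0.69 at oxygen 1, 1.14, 1.29 and 0.98 when starved and 2.02, 2.18 and 2.08 in controls. The groups did not overlap, with starved samples between the others, and Mcm5 fell 6.43-fold in KO (log2 -2.68 ± 0.17, SE; limma adjusted p 1.72e-09) and 6.42-fold in WT cells at oxygen 1 (adjusted p 2.04e-09). When starved it fell by less, at -1.07 ± 0.17 in KO and -0.96 ± 0.17 in WT cells. Mcm2 stood at -1.18, -1.29 and -0.90 in KO cells at oxygen 1, 0.39, 0.24 and 0.16 in starved KO cells and 1.06, 1.05 and 1.35 in KO controls. Mcm2 in WT cells read -1.0, -1.11 and -1.35 at oxygen 1, -0.016, 0.39 and 0.23 when starved and 1.01, 0.97 and 0.82 in controls. Mcm2 had the same order of groups, with changes of -2.28 in KO and -2.09 in WT cells at oxygen 1 and -0.89 and -0.73 when starved. KO samples had Mcm3 at 1.98, 1.81 and 2.18 at oxygen 1, 2.73, 2.95 and 2.82 when starved and 3.50, 3.61 and 3.62 in controls. Mcm3 stood at 1.97, 2.06 and 1.74 in WT cells at oxygen 1, 2.56, 2.73 and 2.86 in starved WT cells and 3.44, 3.34 and 3.43 in WT controls. Mcm3 had the smallest mean change at oxygen 1 among the MCM genes, -1.58 in KO and -1.48 in WT cells. Mcm4, Mcm6 and Mcm7 changed by -1.70 to -1.46 in KO and -1.63 to -1.57 in WT cells at oxygen 1. When starved they changed by -0.95 to -0.68 in KO and -0.84 to -0.50 in WT cells. With single samples left out in turn, here and for the members below, the call of Mcm6 in starved WT cells (limma adjusted p 0.0363) was lost without WT starved replicates 1 and 2 or WT control replicates 1, 2 and 3 (-0.56 to -0.41, adjusted p 0.0534 to 0.165), and with the slide as a block (-0.50, adjusted p 0.058).

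Of the 5 members that mark origins and load the helicase, 4 fell in KO and 5 in WT cells at oxygen 1. Only Orc1 and Cdc6 of these fell when starved, in both genotypes. The subunits Orc3, Orc4 and Orc5 are no members and were counted in a wider list below, where Orc4 rose in KO cells at oxygen 1. Orc1 in KO cells read -6.29, -5.90 and -5.59 at oxygen 1, -4.65, -4.50 and -4.51 when starved and -3.74, -3.49 and -3.82 in controls. WT samples had Orc1 at -6.68, -5.77 and -6.27 at oxygen 1, -4.85, -4.83 and -4.73 when starved and -3.93, -3.80 and -3.95 in controls. Orc1, the largest subunit of the origin recognition complex, was low at oxygen 1 in every sample, without overlap, and changed by -2.24 ± 0.22 in KO (limma adjusted p 2.38e-07) and -2.35 ± 0.22 in WT cells (adjusted p 1.47e-07). Its changes when starved were -0.87 in KO and -0.91 in WT cells. Orc1 is the member nearest background: with normexp background correction its changes at oxygen 1 were -0.87 in KO and -0.76 in WT cells, no longer past the threshold (adjusted p 0.0666 and 0.116), and in starved WT cells its value was 0.12 (adjusted p 0.828). In starved KO cells it was then -0.44 (adjusted p 0.747). The starved calls of Cdc6 were also lost with that correction, at -0.60 in KO (adjusted p 0.13) and -0.47 in WT cells (adjusted p 0.235), so none of these 4 starved calls was kept under it. Cdc6 stood at -3.16, -3.38 and -2.73 in KO cells at oxygen 1, -1.99, -1.84 and -1.80 in starved KO cells and -1.01, -1.05 and -1.46 in KO controls. Cdc6 in WT cells read -3.28, -3.64 and -3.41 at oxygen 1, -2.09, -1.99 and -2.23 when starved and -1.56, -1.09 and -1.23 in controls. Cdc6, the ATPase that closes the MCM ring onto DNA with the complex, followed the same order of groups and fell by 1.91 in KO and 2.15 in WT cells at oxygen 1. When starved Cdc6 changed by -0.70 in KO and -0.81 in WT cells. KO samples had Cdt1 at 2.09, 1.80 and 2.0 at oxygen 1, 3.16, 3.19 and 3.21 when starved and 3.1, 3.19 and 3.09 in controls. Cdt1 stood at 2.09, 1.64 and 1.99 in WT cells at oxygen 1, 3.03, 2.93 and 2.91 in starved WT cells and 2.96, 3.19 and 3.21 in WT controls. Cdt1, the partner of Cdc6 in loading, was lower in every oxygen 1 sample (-1.16 in KO, -1.22 in WT) while starved and control samples overlapped (0.063 with limma adjusted p 0.799 in KO, -0.16 with 0.429 in WT). Orc2 in KO cells read -2.54, -2.58 and -2.89 at oxygen 1, -2.10, -2.09 and -2.19 when starved and -1.99, -1.83 and -1.45 in controls. WT samples had Orc2 at -2.48, -2.34 and -2.70 at oxygen 1, -2.02, -2.15 and -1.86 when starved and -1.64, -2.02 and -2.04 in controls. Orc2, a core subunit of the complex, fell by 0.91 in KO and 0.61 in WT cells at oxygen 1, and its changes when starved did not pass (-0.37 in KO, -0.11 in WT). With normexp background its WT call at oxygen 1 was lost (-0.44, adjusted p 0.0885). Orc6 stood at 0.19, 1.02 and 1.14 in KO cells at oxygen 1, 0.83, 1.00 and 1.02 in starved KO cells and 1.38, 1.51 and 1.18 in KO controls. Orc6 in WT cells read 0.86, -0.86 and 0.83 at oxygen 1, 0.0073, 1.07 and 0.87 when starved and 1.30, 1.61 and 1.43 in controls. Orc6, the smallest subunit, had a WT oxygen 1 sample (replicate 2) and a starved WT sample (replicate 1) far below the others. Its change at oxygen 1 was -0.57 in KO (limma adjusted p 0.227, not past the threshold) and -1.17 in WT cells (adjusted p 0.0157). The WT call was lost without WT oxygen 1 replicate 2 or WT control replicate 2 (-1.09 to -0.60, adjusted p 0.0535 to 0.0965), with the slide as a block (-1.14, adjusted p 0.0771) and with the compared groups alone (-1.17, adjusted p 0.0594). The starved changes of -0.41 in KO and -0.80 in WT cells did not pass, the WT value passing only without WT oxygen 1 replicate 2 (-0.80, adjusted p 0.0352). The starved call of Orc1 in KO cells was lost without KO control replicate 2 (-0.78, adjusted p 0.056).

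Among the 6 members that activate the loaded helicase, 5 fell at oxygen 1 in each genotype and Gins3 did not pass. KO samples had Mcm10 at -0.96, -1.26 and -0.79 at oxygen 1, 0.49, 0.0069 and 0.00033 when starved and 1.17, 1.23 and 1.47 in controls. Mcm10 stood at -0.92, -1.19 and -1.22 in WT cells at oxygen 1, -0.28, -0.037 and 0.019 in starved WT cells and 1.18, 1.10 and 1.10 in WT controls. Mcm10, which binds the activated helicase, had its lowest values at oxygen 1 and its highest in controls with no overlap, and changed by -2.29 ± 0.15 in KO and -2.24 ± 0.15 in WT cells (limma adjusted p 1.85e-09 and 2.77e-09). It was also among the members that fell at least 2-fold when starved, by 2.18-fold in KO and 2.34-fold in WT cells. Gins1 in KO cells read -1.38, -1.26 and -0.93 at oxygen 1, -0.009, 0.31 and 0.14 when starved and 0.49, 0.55 and 0.41 in controls. WT samples had Gins1 at -1.33, -1.67 and -1.30 at oxygen 1, -0.072, 0.086 and -0.048 when starved and 0.32, 0.53 and 0.64 in controls. Gins1, a subunit of the 4-part GINS ring, fell at oxygen 1 (-1.68 in KO, -1.93 in WT). When starved it passed in WT cells (-0.51, limma adjusted p 0.0147) and not in KO cells (-0.34, adjusted p 0.105), though the responses of the genotypes did not differ by test. Cdc45 stood at -4.30, -4.67 and -4.13 in KO cells at oxygen 1, -3.64, -3.74 and -4.07 in starved KO cells and -3.17, -2.90 and -3.54 in KO controls. Cdc45 in WT cells read -4.30, -4.71 and -4.85 at oxygen 1, -4.09, -3.87 and -4.19 when starved and -3.13, -3.59 and -3.22 in controls. Cdc45, which joins MCM and GINS in the active helicase, fell by 1.17 in KO and 1.31 in WT cells at oxygen 1, all oxygen 1 samples lying below all controls. Its change when starved was -0.62 in KO (limma adjusted p 0.0541) and -0.74 in WT cells (adjusted p 0.0219). With normexp background the oxygen 1 changes of Cdc45 were -0.63 in KO and -0.65 in WT cells and did not pass (adjusted p 0.161 and 0.153). KO samples had Gins4 at 0.23, 0.37 and 0.25 at oxygen 1, 0.69, 0.53 and 0.63 when starved and 0.72, 0.75 and 0.79 in controls. Gins4 stood at 0.36, 0.51 and 0.30 in WT cells at oxygen 1, 0.58, 0.51 and 0.73 in starved WT cells and 0.78, 0.69 and 0.63 in WT controls. Gins4, another GINS subunit, moved little, with falls of 0.47 in KO and 0.31 in WT cells at oxygen 1 and changes of -0.14 and -0.094 when starved that did not pass. With the slide as a block the WT call at oxygen 1 was lost (-0.27, adjusted p 0.073). Gins3 in KO cells read 4.50, 4.78 and 4.33 at oxygen 1, 4.09, 4.31 and 4.10 when starved and 4.28, 4.39 and 4.29 in controls. WT samples had Gins3 at 4.71, 4.34 and 4.55 at oxygen 1, 4.27, 4.19 and 4.24 when starved and 4.40, 4.23 and 4.31 in controls. Gins3, also of the GINS ring, overlapped its controls in both stresses, at 0.21 in KO and 0.22 in WT cells at oxygen 1 (limma adjusted p 0.151 and 0.133). It passed as higher at oxygen 1 without KO oxygen 1 replicate 3 (0.32, adjusted p 0.0437) in KO cells, and without WT oxygen 1 replicate 2 (0.32, adjusted p 0.0457) in WT cells. Gins2 changed by -1.88 in KO and -1.60 in WT cells at oxygen 1, so the 4 subunits of this ring spread from -1.88 to 0.21 in KO and from -1.93 to 0.22 in WT cells. The starved WT call of Gins1 was lost without WT starved replicate 1 or WT control replicates 2 and 3 (-0.49 to -0.44, adjusted p 0.0532 to 0.0829). That of Cdc45 was lost without WT starved replicates 1 and 3 or WT control replicates 1 and 3 (-0.72 to -0.65, adjusted p 0.0678 to 0.091), and its KO change passed without KO oxygen 1 replicate 2, KO control replicate 3 or WT oxygen 1 replicate 1 (-0.79 to -0.62, adjusted p 0.024 to 0.0486) and with the slide as a block (-0.66, adjusted p 0.0302).

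**Figure D3:**
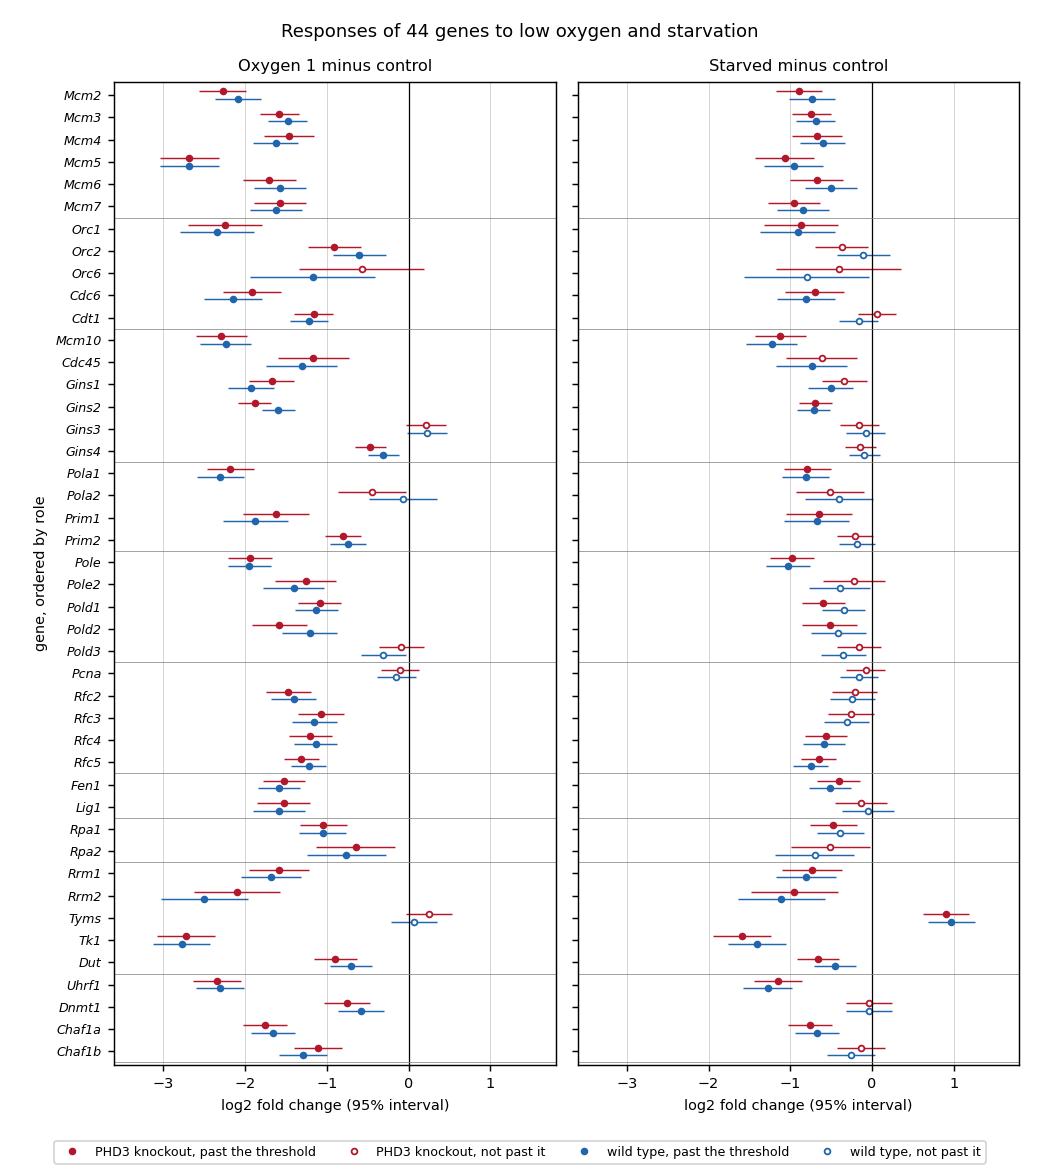
Log2 fold change with its 95% interval for each gene (rows, by role) at oxygen 1 (left) and when starved (right), each against its own controls, in KO (red) and WT cells (blue); filled points passed limma's adjusted threshold of 0.05. Nearly all oxygen 1 points lie left of 0 and further out than the starved points, the KO and WT points of a gene lie close together, and Tyms stands right of 0 when starved.

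The enzyme that starts each new strand is a complex of primase and polymerase alpha, and 3 of its 4 subunits fell at oxygen 1 in each genotype. Pola1 stood at -2.33, -2.17 and -1.80 in KO cells at oxygen 1, -0.92, -0.55 and -0.66 in starved KO cells and -0.044, 0.079 and 0.22 in KO controls. Pola1 in WT cells read -2.15, -2.34 and -2.39 at oxygen 1, -0.84, -0.95 and -0.62 when starved and -0.01, -0.022 and 0.05 in controls. Pola1, the polymerase subunit, was low in all oxygen 1 samples, intermediate when starved and high in controls, changing by -2.18 ± 0.14 in KO and -2.30 ± 0.14 in WT cells at oxygen 1 (limma adjusted p 1.34e-09 and 8.61e-10). Its changes when starved were -0.79 in KO and -0.81 in WT cells. KO samples had Prim1 at -0.63, -0.84 and 0.0028 at oxygen 1, 0.32, 0.54 and 0.57 when starved and 1.28, 1.27 and 0.83 in controls. Prim1 stood at -0.77, -0.84 and -0.87 in WT cells at oxygen 1, 0.49, 0.46 and 0.16 in starved WT cells and 0.71, 1.27 and 1.16 in WT controls. Prim1, which makes the RNA primer, fell by 1.62 in KO and 1.88 in WT cells at oxygen 1 and by 0.65 and 0.68 when starved. Prim2 in KO cells read -0.89, -0.76 and -0.79 at oxygen 1, -0.43, -0.073 and -0.17 when starved and -0.13, 0.075 and 0.012 in controls. WT samples had Prim2 at -0.71, -0.91 and -0.84 at oxygen 1, -0.20, -0.40 and -0.17 when starved and -0.035, -0.13 and -0.06 in controls. Prim2, the regulatory subunit of primase, fell at oxygen 1 only, by 0.80 in KO and 0.75 in WT cells, against starved changes of -0.21 and -0.18 that did not pass. Pola2 stood at -3.57, -3.64 and -3.29 in KO cells at oxygen 1, -3.49, -3.59 and -3.60 in starved KO cells and -2.87, -2.82 and -3.47 in KO controls. Pola2 in WT cells read -3.50, -3.05 and -3.56 at oxygen 1, -3.61, -3.55 and -3.94 when starved and -3.32, -2.99 and -3.59 in controls. Pola2, the accessory subunit of polymerase alpha, overlapped between oxygen 1 and control in both genotypes, at -0.45 in KO (limma adjusted p 0.0811) and -0.069 in WT cells (adjusted p 0.812). When starved Pola2 averaged -3.56 in KO and -3.70 in WT cells, beside -3.05 and -3.30 in controls, and neither change passed. With the slide as a block the KO change at oxygen 1 passed (-0.53, adjusted p 0.0307). Without KO control replicate 3 its KO change passed at oxygen 1 (-0.66, adjusted p 0.0125) and when starved (-0.72, adjusted p 0.0211). The starved calls of Prim1 were lost in KO cells without KO starved replicates 1 and 2 or KO control replicates 1 and 2 (-0.68 to -0.57, adjusted p 0.0573 to 0.108), and in WT cells without WT starved replicate 3 or WT control replicates 2 and 3 (-0.62 to -0.57, adjusted p 0.088 to 0.116).

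Of the 5 members that are subunits of the main replicative polymerases, 4 fell at oxygen 1 in each genotype, and 3 in KO and 1 in WT cells when starved. The subunits Pole3, Pole4 and Pold4 are no members and were counted in a wider list below, where Pold4 rose at oxygen 1. KO samples had Pole at -1.46, -1.71 and -1.58 at oxygen 1, -0.76, -0.53 and -0.59 when starved and 0.32, 0.41 and 0.34 in controls. Pole stood at -1.42, -2.07 and -1.74 in WT cells at oxygen 1, -0.82, -0.88 and -0.78 in starved WT cells and 0.22, 0.17 and 0.22 in WT controls. Pole, the catalytic subunit of the leading-strand polymerase epsilon, changed by -1.94 ± 0.13 in KO and -1.95 ± 0.13 in WT cells at oxygen 1, with no overlap between any of the 3 states in either genotype. It fell by 0.98 in KO (limma adjusted p 3.47e-05) and 1.03 in WT cells (adjusted p 2.47e-05) when starved. Pold2 in KO cells read -2.49, -2.96 and -3.08 at oxygen 1, -1.71, -1.65 and -1.97 when starved and -1.16, -1.12 and -1.49 in controls. WT samples had Pold2 at -2.47, -2.70 and -2.73 at oxygen 1, -1.60, -1.85 and -2.06 when starved and -1.37, -1.37 and -1.53 in controls. Pold2, a subunit of polymerase delta, which copies the lagging strand, changed at oxygen 1 by -1.58 in KO and -1.21 in WT cells. When starved it changed by -0.52 in KO (limma adjusted p 0.0369) and -0.42 in WT cells (adjusted p 0.105, not past the threshold). Pole2 stood at -3.36, -2.99 and -2.73 in KO cells at oxygen 1, -2.25, -1.78 and -1.93 in starved KO cells and -1.89, -1.84 and -1.57 in KO controls. Pole2 in WT cells read -2.87, -3.09 and -3.47 at oxygen 1, -2.16, -2.24 and -2.0 when starved and -1.57, -1.80 and -1.84 in controls. Pole2, a further subunit of epsilon, fell at oxygen 1 (-1.26 in KO, -1.40 in WT) and did not pass when starved (-0.22 in KO, -0.40 in WT). KO samples had Pold1 at 0.59, 0.41 and 0.74 at oxygen 1, 1.03, 1.12 and 1.07 when starved and 1.58, 1.67 and 1.76 in controls. Pold1 stood at 0.28, 0.71 and 0.25 in WT cells at oxygen 1, 1.07, 1.31 and 1.21 in starved WT cells and 1.65, 1.37 and 1.61 in WT controls. Pold1, the catalytic subunit of delta, fell by 1.09 in KO and 1.13 in WT cells at oxygen 1, and when starved passed in KO (-0.60, limma adjusted p 0.00302) but not in WT cells (-0.35, adjusted p 0.0823). Pold3 in KO cells read 1.61, 1.56 and 1.78 at oxygen 1, 1.50, 1.48 and 1.77 when starved and 1.86, 1.75 and 1.61 in controls. WT samples had Pold3 at 1.50, 1.29 and 1.74 at oxygen 1, 1.49, 1.59 and 1.33 when starved and 1.61, 1.90 and 1.94 in controls. Pold3, a delta subunit that binds Pcna, overlapped its controls at oxygen 1, with -0.087 in KO (limma adjusted p 0.63) and -0.31 in WT cells (adjusted p 0.0671). Its starved changes were -0.16 in KO and -0.35 in WT cells, neither past the threshold. The WT change of Pold3 passed at oxygen 1 without WT oxygen 1 replicate 3 or WT control replicate 1 (-0.42 to -0.41, adjusted p 0.0192 to 0.0267), and when starved without WT control replicate 1 (-0.45, adjusted p 0.0429). The starved KO call of Pold2 was lost without KO starved replicates 1 and 3 or KO control replicates 1 and 2 (-0.55 to -0.42, adjusted p 0.0663 to 0.155), and Pold1 passed in starved WT cells without WT oxygen 1 replicate 2 (-0.35, adjusted p 0.0325).

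Of the sliding clamp and its loader, the 4 loader subunits among the members fell at oxygen 1 in both genotypes while the clamp itself did not pass. A further loader subunit, Rfc1, is no member and was counted in a wider list below. Pcna stood at 4.62, 4.56 and 4.92 in KO cells at oxygen 1, 4.72, 4.60 and 4.86 in starved KO cells and 4.67, 4.83 and 4.90 in KO controls. Pcna in WT cells read 4.74, 4.55 and 4.72 at oxygen 1, 4.64, 4.61 and 4.73 when starved and 4.64, 4.89 and 4.95 in controls. Pcna, the ring that tethers the polymerases to DNA, overlapped among all 6 groups. Its changes were -0.11 in KO (95% interval -0.34 to 0.13; limma adjusted p 0.489) and -0.15 in WT cells (-0.39 to 0.086; adjusted p 0.311) at oxygen 1, and -0.077 and -0.16 when starved. The array measured Pcna with 1 probe, RefSeq lists Pcna pseudogenes, and the probe's sequence was not used here. KO samples had Rfc2 at 0.35, 0.11 and 0.27 at oxygen 1, 1.62, 1.50 and 1.38 when starved and 1.83, 1.84 and 1.48 in controls. Rfc2 stood at 0.23, 0.12 and 0.47 in WT cells at oxygen 1, 1.53, 1.57 and 1.21 in starved WT cells and 1.55, 1.66 and 1.82 in WT controls. Rfc2 had the largest fall of these 4 loader subunits, -1.47 ± 0.13 in KO and -1.41 ± 0.13 in WT cells. Its starved samples overlapped controls (-0.21 in KO, -0.24 in WT, not past the threshold). Rfc5 in KO cells read 0.23, 0.11 and 0.21 at oxygen 1, 0.86, 0.84 and 0.83 when starved and 1.51, 1.64 and 1.34 in controls. WT samples had Rfc5 at 0.20, 0.0085 and 0.26 at oxygen 1, 0.57, 0.74 and 0.57 when starved and 1.22, 1.43 and 1.49 in controls. Rfc5 fell in both stresses, by 1.31 in KO and 1.22 in WT cells at oxygen 1 and by 0.65 and 0.75 when starved. Rfc3 stood at -1.89, -1.97 and -1.91 in KO cells at oxygen 1, -1.03, -1.21 and -1.07 in starved KO cells and -0.82, -0.61 and -1.12 in KO controls. Rfc3 in WT cells read -1.99, -2.31 and -1.88 at oxygen 1, -1.11, -1.17 and -1.38 when starved and -1.0, -0.89 and -0.83 in controls. Rfc3 fell at oxygen 1 (-1.07 in KO, -1.15 in WT) and did not pass when starved (-0.26 in KO, -0.31 in WT). Rfc4 fell in all 4 comparisons, at -1.20 in KO and -1.14 in WT cells at oxygen 1 and -0.57 and -0.59 when starved.

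The pair of members that finish Okazaki fragments both fell at oxygen 1. KO samples had Lig1 at 1.44, 1.26 and 1.64 at oxygen 1, 2.90, 2.95 and 2.67 when starved and 2.98, 3.01 and 2.94 in controls. Lig1 stood at 1.39, 1.05 and 1.26 in WT cells at oxygen 1, 3.08, 2.89 and 2.36 in starved WT cells and 2.77, 2.76 and 2.94 in WT controls. Lig1, the ligase that seals the nicks, fell 2.89-fold in KO (log2 -1.53 ± 0.15, limma adjusted p 3.54e-07) and 3.01-fold in WT cells (-1.59 ± 0.15, adjusted p 2.44e-07), every oxygen 1 sample lying below every other. Its starved samples overlapped controls, at -0.14 in KO (95% interval -0.46 to 0.19) and -0.048 in WT cells (-0.37 to 0.27). Fen1 in KO cells read 2.24, 1.96 and 2.44 at oxygen 1, 3.27, 3.28 and 3.43 when starved and 3.77, 3.80 and 3.64 in controls. WT samples had Fen1 at 2.23, 1.87 and 2.23 at oxygen 1, 3.23, 3.18 and 3.14 when starved and 3.55, 3.77 and 3.79 in controls. Fen1, the nuclease that trims the flap before ligation, fell by 1.52 in KO and 1.59 in WT cells at oxygen 1, and by 0.41 (limma adjusted p 0.031) and 0.51 (adjusted p 0.00826) when starved. The starved KO call of Fen1 was lost without KO starved replicates 1 and 2 or KO control replicates 1 and 2 (-0.39 to -0.38, adjusted p 0.0872 to 0.106). Replication protein A coats single-stranded DNA, and its subunits Rpa1 and Rpa2 fell at oxygen 1. Rpa1 stood at 2.41, 2.50 and 2.27 in KO cells at oxygen 1, 3.01, 2.90 and 2.99 in starved KO cells and 3.27, 3.27 and 3.78 in KO controls. Rpa1 in WT cells read 2.25, 2.34 and 2.40 at oxygen 1, 2.92, 2.87 and 3.18 when starved and 3.59, 3.17 and 3.38 in controls. Rpa1 changed by -1.05 in KO and -1.05 in WT cells at oxygen 1 without overlap. When starved it changed by -0.47 in KO (limma adjusted p 0.0257) and -0.39 in WT cells (adjusted p 0.071). KO samples had Rpa2 at -0.0051, 0.041 and 0.13 at oxygen 1, 0.032, 0.12 and 0.42 when starved and 0.71, 0.51 and 0.89 in controls. Rpa2 stood at -0.27, -0.58 and 0.64 in WT cells at oxygen 1, -0.24, 0.016 and 0.19 in starved WT cells and 0.38, 0.77 and 0.92 in WT controls. Rpa2 changed at oxygen 1 by -0.65 in KO (limma adjusted p 0.0315) and -0.76 in WT cells (adjusted p 0.0134), where replicate 3 at oxygen 1 reached into the range of the controls. The starved changes of Rpa2 were -0.51 in KO and -0.70 in WT cells and did not pass. At oxygen 1 the Rpa2 call was lost in KO cells without KO oxygen 1 replicates 1, 2 and 3 or KO control replicates 1 and 3 (-0.69 to -0.55, adjusted p 0.0521 to 0.0993), and in WT cells without WT oxygen 1 replicates 1 and 2 or WT control replicate 3 (-0.66 to -0.51, adjusted p 0.0589 to 0.0878). Its starved change passed in KO cells without WT oxygen 1 replicate 3 (-0.51, adjusted p 0.0341), and in WT cells without WT oxygen 1 replicates 2 and 3 or WT control replicate 1 (-0.86 to -0.70, adjusted p 0.00514 to 0.0339). With the slide as a block, the starved WT change of Rpa2 passed (-0.70, adjusted p 0.017), and it passed with normexp background (adjusted p 0.0325) and with the compared groups alone (adjusted p 0.0268), where the WT call at oxygen 1 was lost (-0.76, adjusted p 0.0792). The starved KO call of Rpa1 was lost without KO starved replicates 1, 2 and 3 or KO control replicate 3 (-0.49 to -0.30, adjusted p 0.0539 to 0.141), and its WT change passed without KO control replicate 3, WT starved replicate 3 or WT control replicate 2 (-0.50 to -0.39, adjusted p 0.0237 to 0.0412) and with the slide as a block (-0.39, adjusted p 0.0419).

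**Figure D4:**
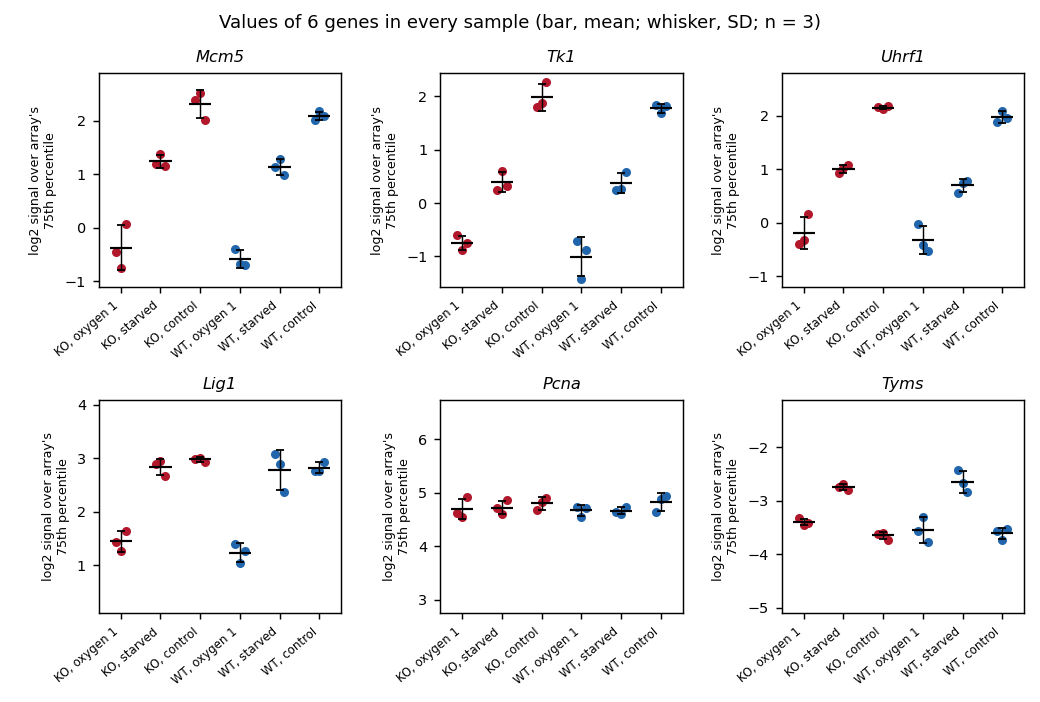
Log2 signal relative to the array's 75th percentile for 6 genes in each sample (points; KO red, WT blue; bar, mean; whisker, SD; n = 3 per group). Mcm5, Tk1 and Uhrf1 step down from control to starved to oxygen 1 in both genotypes, Lig1 is low at oxygen 1 alone, Pcna overlaps across groups, and Tyms is highest in the starved groups.

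Of the 5 members of nucleotide synthesis, 4 fell in all 4 comparisons with controls, and Tyms rose when starved. Tk1 in KO cells read -0.60, -0.87 and -0.76 at oxygen 1, 0.25, 0.61 and 0.32 when starved and 1.79, 1.87 and 2.27 in controls. WT samples had Tk1 at -0.71, -1.42 and -0.89 at oxygen 1, 0.25, 0.27 and 0.58 when starved and 1.83, 1.68 and 1.82 in controls. Tk1, the cytosolic thymidine kinase of the salvage pathway, had the largest fall of all members at oxygen 1 in both genotypes, 6.60-fold in KO (log2 -2.72 ± 0.17, limma adjusted p 1.08e-09) and 6.86-fold in WT cells (-2.78 ± 0.17, adjusted p 1.03e-09). It also fell most when starved, by 3.01-fold in KO and 2.65-fold in WT cells, and no 2 states overlapped. Rrm2 stood at 0.24, 0.39 and 0.55 in KO cells at oxygen 1, 1.50, 1.63 and 1.50 in starved KO cells and 2.61, 2.52 and 2.35 in KO controls. Rrm2 in WT cells read 0.58, -1.0 and 0.13 at oxygen 1, 1.17, 1.19 and 1.53 when starved and 2.42, 2.46 and 2.33 in controls. Rrm2, the subunit of ribonucleotide reductase made for S phase, fell by 2.10 in KO and 2.50 in WT cells at oxygen 1, with WT replicate 2 the lowest sample. When starved it changed by -0.95 in KO (limma adjusted p 0.0156) and -1.11 in WT cells (adjusted p 0.00577). KO samples had Tyms at -3.33, -3.45 and -3.41 at oxygen 1, -2.74, -2.70 and -2.80 when starved and -3.62, -3.60 and -3.73 in controls. Tyms stood at -3.57, -3.30 and -3.78 in WT cells at oxygen 1, -2.43, -2.67 and -2.83 in starved WT cells and -3.57, -3.73 and -3.54 in WT controls. Tyms, which makes thymidylate from deoxyuridylate, was higher in every starved sample than in any control, by 1.87-fold in KO (log2 0.90 ± 0.13, limma adjusted p 0.000155) and 1.96-fold in WT cells (0.97 ± 0.13, adjusted p 8.08e-05). At oxygen 1 its change was 0.25 in KO (adjusted p 0.159) and 0.063 in WT cells (adjusted p 0.746). Tyms and Tk1, the other route to thymidylate, thus carried different calls in both stresses. It was measured by 1 probe, RefSeq lists a Tyms pseudogene, and the probe's sequence was not used here. With normexp background the KO rise of Tyms was 0.56 and did not pass (adjusted p 0.158). Rrm1, the large subunit of ribonucleotide reductase, changed by -1.59 in KO and -1.69 in WT cells at oxygen 1 and -0.73 and -0.81 when starved. Dut, which removes dUTP, changed by -0.90 at oxygen 1 and -0.66 when starved in KO cells, and by -0.71 and -0.45 in WT cells. The starved KO call of Rrm2 was lost without KO starved replicate 3 or KO control replicate 1 (-0.93 to -0.89, adjusted p 0.0508 to 0.0562), and the starved WT call of Dut without WT starved replicates 1 and 2 or WT control replicate 1 (-0.42 to -0.36, adjusted p 0.0767 to 0.111).

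The 4 members that restore chromatin and methylation behind the fork all fell at oxygen 1 in both genotypes, and 2 of them when starved. Uhrf1 in KO cells read -0.39, -0.33 and 0.16 at oxygen 1, 0.92, 1.02 and 1.07 when starved and 2.16, 2.12 and 2.19 in controls. WT samples had Uhrf1 at -0.028, -0.42 and -0.53 at oxygen 1, 0.56, 0.75 and 0.78 when starved and 1.88, 2.09 and 1.96 in controls. Uhrf1, which reads newly copied, partly methylated DNA, fell 5.08-fold in KO (log2 -2.34 ± 0.14, limma adjusted p 8.2e-10) and 4.94-fold in WT cells at oxygen 1 (adjusted p 1.14e-09). When starved it fell 2.22-fold in KO and 2.43-fold in WT cells, and the 3 states did not overlap. Dnmt1 stood at -0.78, -0.69 and -0.28 in KO cells at oxygen 1, 0.19, 0.12 and 0.095 in starved KO cells and 0.34, 0.13 and 0.064 in KO controls. Dnmt1 in WT cells read -0.41, -0.52 and -0.55 at oxygen 1, 0.10, 0.21 and -0.17 when starved and -0.0056, 0.27 and -0.012 in controls. Dnmt1, the methyltransferase that Uhrf1 recruits, fell by 0.76 in KO and 0.58 in WT cells at oxygen 1 and lay among its controls when starved, at -0.04 (95% interval -0.32 to 0.24) in KO and -0.039 (-0.32 to 0.24) in WT cells. KO samples had Chaf1a at -1.18, -1.36 and -1.02 at oxygen 1, -0.066, -0.051 and -0.47 when starved and 0.62, 0.70 and 0.38 in controls. Chaf1a stood at -1.16, -1.26 and -1.42 in WT cells at oxygen 1, -0.25, -0.23 and -0.43 in starved WT cells and 0.30, 0.38 and 0.44 in WT controls. Chaf1a, the largest subunit of the histone chaperone CAF-1, fell in both stresses, by 1.75 in KO and 1.65 in WT cells at oxygen 1 and by 0.76 and 0.68 when starved. Chaf1b in KO cells read 1.33, 1.00 and 1.16 at oxygen 1, 2.03, 2.27 and 2.10 when starved and 2.29, 2.31 and 2.21 in controls. WT samples had Chaf1b at 1.06, 0.68 and 1.34 at oxygen 1, 2.14, 2.09 and 1.94 when starved and 2.12, 2.39 and 2.44 in controls. Chaf1b, its partner in CAF-1, fell at oxygen 1 (-1.11 in KO, -1.29 in WT) and overlapped controls when starved (-0.14 in KO, -0.26 in WT, not past the threshold). Of the 5 members with 2 probes, the dimmer probe of Cdc6, Chaf1b, Rfc4 and Uhrf1 changed in the same direction, at oxygen 1 by -2.93 to -1.0 in KO and -2.84 to -1.19 in WT cells. The other probe of Pole was well above background in 2 samples and was not tested.

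Set against starvation directly, oxygen 1 left most members lower. Between oxygen 1 and starved cells of the same genotype, limma called 37 members lower in KO cells, against 18.1% of all genes, and 36 in WT cells, against 18.7%. Lower in both genotypes were 36 members, and the share of all genes lower in both was not counted. The medians were -0.91 in KO and -0.89 in WT cells, beside 0.0053 and 0.0034 for all genes. The widest gaps were those of Mcm5 (-1.62 in KO, -1.72 in WT) and Lig1 (-1.40 in KO, -1.54 in WT). Tyms was lower at oxygen 1 than when starved, by 0.66 in KO and 0.91 in WT cells. Dut, which fell in both stresses, did not differ by test between them (-0.23 with limma adjusted p 0.149 in KO, -0.26 with 0.106 in WT). Gins3 alone was higher at oxygen 1 than when starved, by 0.37 in KO (limma adjusted p 0.017) and 0.30 in WT cells (adjusted p 0.0447), where 19.7% and 20.5% of all genes rose, and the calls depended on single samples. The KO call was lost without KO oxygen 1 replicate 2 or KO starved replicates 1 or 3, and the WT call in 12 of the 18 fits that left out 1 sample. Within slides that held both groups the member medians were -0.94 and -0.74 in KO cells and -0.93 in WT cells.

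No member differed between KO and WT cells by limma's adjusted test at oxygen 1 (background 0.0% of all genes), when starved (0.0048%, a single gene, the lysozyme gene Lyz2) or in controls (0.0%). At an unadjusted p under 0.05, the members counted 0 at oxygen 1, 2 when starved (Rfc5 at 0.21 and Uhrf1 at 0.31, both higher in KO cells and chosen after their values were seen) and 0 in controls. Over all genes 313, 370 and 263 reached that level in the same 3 conditions. The responses to oxygen 1 and to starvation did not differ between genotypes for any member or any gene (0.0% and 0.0%), with 0 members at an unadjusted p under 0.05 in either and 188 and 180 genes in all. The median 95% interval of a member's KO minus WT difference reached 0.29 to either side at oxygen 1 and when starved, and 0.29 in controls, and 0.41 for a difference of responses. Intervals lay within 1 log2 unit of 0 for 42, 43 and 44 of the 44 members at oxygen 1, when starved and in controls. The interval that reached furthest from 0 was that of Orc6 at oxygen 1, 0.51 (-0.26 to 1.27). Small differences leaned upward in KO cells: the member median was 0.12 at oxygen 1, 0.11 when starved and 0.096 in controls, beside 0.0063, 0.0037 and 0.0043 for all genes. The difference was above 0 for 79.5%, 81.8% and 84.1% of members in these conditions, against 51.8%, 51.3% and 51.4% of all genes. It was above 0 in all 3 for 24 members (54.5%, against 15.3% of all genes), and below 0 in all 3 for 0 members. The members moved together, so they are not separate observations of a lean. Within slides that held both genotypes the median ranged from -0.034 to 0.29 over 3 slides at oxygen 1, and was 0.12 on 1 slide when starved and 0.037 on 1 slide in controls, so the upward lean was not seen on every slide.

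**Figure D5:**
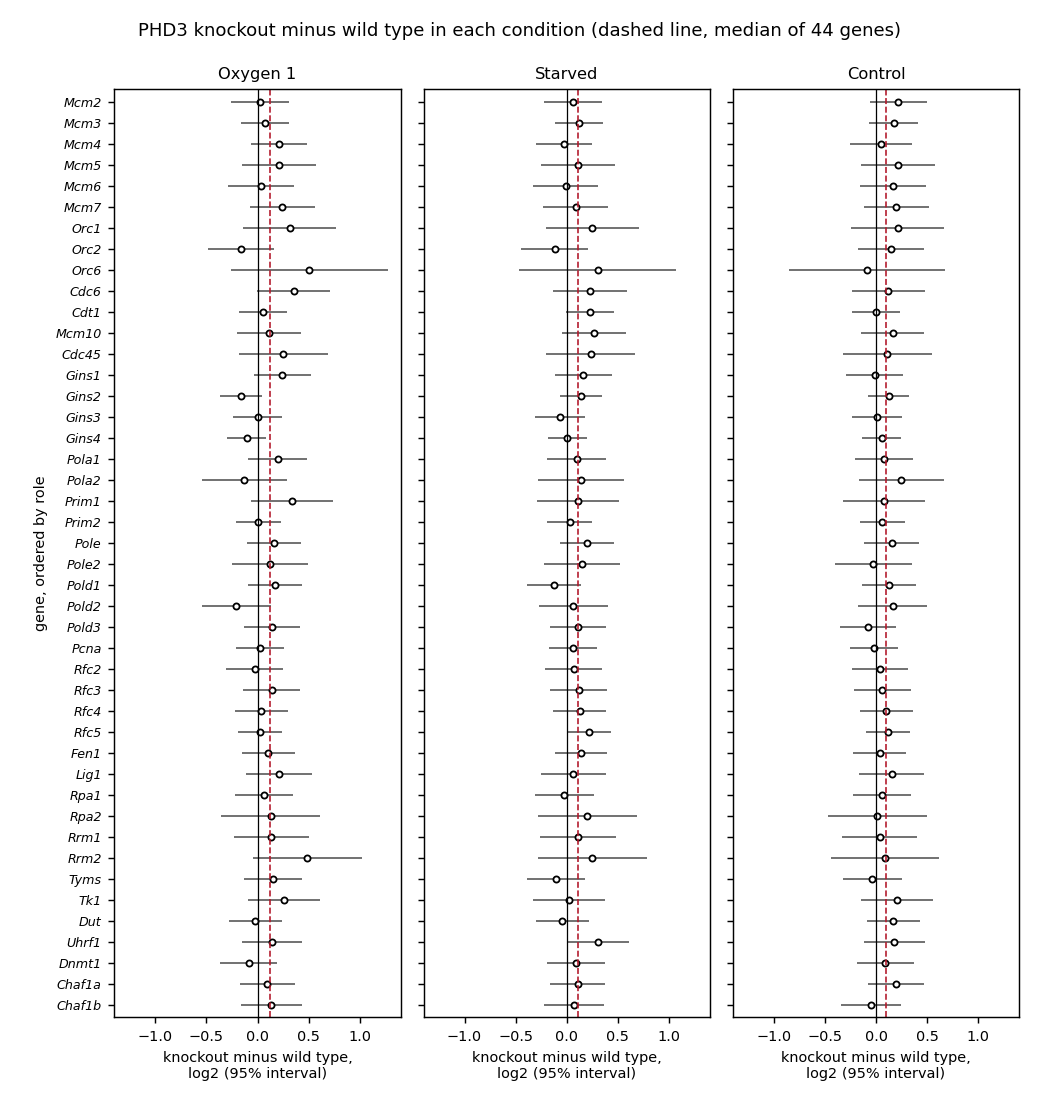
KO minus WT log2 difference with its 95% interval for each gene (rows, by role) at oxygen 1, when starved and in controls; the dashed line is the median of the 44 genes. Medians lie at 0.12, 0.11 and 0.096, and no gene passed limma's adjusted threshold in any panel.

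Other genes of the same pathways came from 7 lists in which every gene was tested. Over all genes at oxygen 1, 18.8% fell and 21.9% rose in KO and 18.5% and 21.0% in WT cells. The shares when starved were 6.82% and 7.29% in KO and 6.36% and 6.6% in WT cells. Of 17 genes that control licensing and origin firing, 9 fell and 1 rose in KO and 10 fell and 0 rose in WT cells at oxygen 1, with medians of -0.51 and -0.60, and 5 and 4 fell when starved. Ticrr, Recql4 and Topbp1, which act at origin firing, changed by -1.77, -1.71 and -0.99 in KO and -1.86, -1.95 and -0.85 in WT cells at oxygen 1. Orc4, a further subunit of the origin recognition complex, rose in KO cells (0.57, limma adjusted p 0.0494) and did not pass in WT cells (0.43). Of 26 other replisome and fork proteins, 18 fell in KO and 20 in WT cells at oxygen 1, and 8 in each when starved. Dscc1 and Chtf18, of an alternative clamp loader, changed by -2.68 and -2.12 in KO and -2.83 and -2.01 in WT cells, and Timeless, a fork protection protein, by -1.87 and -1.94. Pold4, the small subunit of polymerase delta, went the other way, at 0.47 in KO and 0.62 in WT cells (limma adjusted p 0.00359 and 0.000386). Of 13 genes of replication-coupled chromatin, 9 fell in KO and 11 in WT cells at oxygen 1, and 6 and 5 when starved. Among these, Cdca7 and Hells, partners in chromatin remodelling, changed by -1.76 and -1.66 in KO and -2.01 and -1.92 in WT cells. The histone acetyltransferase gene Hat1 changed by -0.97 in KO and -0.91 in WT cells. Dnmt3b, a de novo methyltransferase, rose by 0.57 and 0.47.

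The pathways that feed the nucleotide pool held genes that moved in both directions. Their counts stand beside the same shares of all genes. At oxygen 1, 18.8% fell and 21.9% rose in KO and 18.5% and 21.0% in WT cells. When starved, 6.82% fell and 7.29% rose in KO and 6.36% and 6.6% in WT cells. Of 18 genes of deoxynucleotide supply and salvage, 9 fell and 2 rose in KO and 9 fell and 1 rose in WT cells at oxygen 1, and 4 fell in each genotype when starved. Dctpp1, which hydrolyses dCTP, Dtymk, the thymidylate kinase, and Slc29a1, a nucleoside transporter, changed by -1.0, -1.01 and -0.96 in KO and -1.03, -0.99 and -0.89 in WT cells. Cmpk2, a mitochondrial nucleotide kinase, rose by 1.09 in KO and 0.81 in WT cells, and Nt5c, a nucleotidase, rose in KO cells (0.42, limma adjusted p 0.0146; WT 0.18, adjusted p 0.31). Of 5 genes of pyrimidine synthesis, 3 fell in KO and 2 in WT cells at oxygen 1, and 1 in each when starved, the CTP synthase gene Ctps. Ctps changed by -1.49 and Umps by -1.22 in KO cells at oxygen 1, and by -1.63 and -1.07 in WT cells, while Dhodh stood at -0.44 in KO (limma adjusted p 0.0289) and -0.39 in WT cells (adjusted p 0.0511). Of 12 purine synthesis genes, 9 fell in each genotype at oxygen 1, but only 2 in KO and 1 in WT cells when starved. Pfas, Prps2 and Paics changed by -0.89, -0.83 and -0.59 in KO and -1.12, -0.92 and -0.74 in WT cells, and Impdh1, which leads towards guanine nucleotides, rose by 0.42 and 0.54. Of 13 genes of the folate cycle, which supplies carbon units to purines and thymidylate, 9 fell and 3 rose in each genotype at oxygen 1. The cytosolic enzyme gene Mthfd1 changed by -1.33 in KO and -1.40 in WT cells, and the methionine synthase gene Mtr by -1.88 and -1.66. Mthfd1l, a mitochondrial enzyme of the cycle, rose by 2.52 in KO and 2.24 in WT cells (limma adjusted p 2.7e-09 and 3.24e-09), with Aldh1l2 at 0.54 and 0.65 and Ggh at 0.34 and 0.38. When starved, 5 folate genes fell in KO and 6 in WT cells, among them Aldh1l2 (-1.63 in KO, -1.44 in WT) and Mthfd1l (-0.55, -0.68), and Aldh1l1 rose (0.99 in KO, 0.97 in WT).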

How the data were processed

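Expression was measured on 1-colour Agilent mouse arrays in 18 samples of 6 groups. Per the labels' protocols, 200 ng RNA per array was labelled with Cy3, although the label field names biotin. Per the file headers, Agilent Feature Extraction 10.7.3.1 wrote the deposited files, which give each spot's intensity after subtraction of background and a spatial trend. Arrays had not been put on a common scale, and the design was built on mm9. The deposited value table of the authors holds log2 values, and limma stands in the submitters' processing notes, unversioned. That table was used as an alternative only.

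The main value was the log2 of the processed signal less the log2 of its 75th percentile on that array. Non-uniform and population outlier spots were left out, and the 2 samples on 2 arrays each were averaged. A probe was kept when well above background in at least 3 of 18 samples with at least 2 values in every group. The brightest probe stood for a gene. Of 39429 probes, 26055 received a RefSeq symbol through their accession and 13374 did not, leaving 20813 genes, 14008 of them with a symbol, and 0.117% missing values, which the fit drops for that gene.

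limma 3.58.1 in R 4.3.3 fitted 6 group means over all samples, with a variance trend, 12 residual and 5.06 prior degrees of freedom. Its 2-sided p-values were adjusted by Benjamini and Hochberg over all genes tested, with a threshold of 0.05. The step was tested on simulated data. Errors of fold changes are standard errors, and intervals are 95% intervals.

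The 44 genes, their 10 roles, the 7 wider lists and the 7 marker lists were chosen with earlier results of these data known. Values in every sample are given for the 2 members of each role with the largest mean change over both oxygen 1 comparisons, the 1 with the smallest, and each member that did not pass or went the other way in a comparison with controls. Of the wider lists, the 3 genes with the smallest adjusted p in WT cells at oxygen 1, and those past the threshold against most of their list, are named. Alternatives were normexp background with an offset of 50, quantile normalization, both together, the authors' table, other filters and probe rules, a slide or replicate block, the compared groups alone, and leaving out samples. Normexp used the median spot signal, and the mean was not used here. No genome was used, and coordinates come only from the promoter table.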

Additional observations from a re-analysis of the deposited data

How the results depend on the processing

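Over the 4 comparisons with controls and 30 alternatives (29 for some), 5144 member values kept their direction and their side of the threshold, 86 kept direction but no longer passed, 44 came to pass and 2 reversed. Both reversals came with normexp background in starved WT cells, Orc1 at 0.12 (adjusted p 0.828) and Cdc45 at 0.024 (adjusted p 0.962), neither past the threshold. With that correction, starved WT replicate 2 stood apart in its median over all genes of the difference from each gene's mean. That median was 0.37, beside -0.086 and -0.082 in starved WT replicates 1 and 3. Its part in the reversals was not tested. The number of members that fell stayed within 36 to 39 in KO and 36 to 40 in WT cells at oxygen 1, 18 to 26 and 21 to 26 when starved, and 32 to 37 and 34 to 36 for oxygen 1 against starved cells. Leaving out single samples gave 37 to 38 and 37 to 40 at oxygen 1, 21 to 26 and 20 to 27 when starved, and 36 to 37 and 34 to 36 for oxygen 1 against starved, each in KO and then WT cells. Between genotypes and for differences of responses, 0 members were called under every alternative run.

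With normexp background fewer of all genes passed, 4767 in KO against 8477 and 4619 in WT against 8212 at oxygen 1, 1254 against 2938 and 1400 against 2697 when starved, and 4336 against 7866 and 4730 against 8158 for oxygen 1 against starved cells. The cause was not tested. Under it the starved calls of Orc1, Cdc6, Fen1, Pold2, Prim1, Rpa1 and Rrm2 in KO and of Orc1, Cdc6, Cdc45, Dut and Mcm6 in WT cells were lost. Also under it, 0 members rose in starved KO cells, against 1. Gins3 as the 1 member higher at oxygen 1 than when starved became 0 in KO cells with normexp, quantile normalization, both together or the compared groups alone. In WT cells it became 0 under those settings and with the authors' table, no filter on dim probes, the slide block and the replicate block. It also became 0 without KO control replicate 3, WT starved replicate 3 and WT control replicate 1 together. Leaving out single samples gave 0 to 1 for both genotypes, and likewise 0 to 1 members that rose at oxygen 1 against controls. The settings of normexp with quantile normalization and of the 3 samples left out were chosen after seeing the data.

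With the replicate block, 38 members fell in KO and 39 in WT cells at oxygen 1 and 26 in each when starved. The added calls were those of Cdc45 in KO and of Pold2 and Rpa2 in WT cells. Same-numbered samples correlated at -0.33 to 0.48 in their deviations (median 0.050, 15 of 45 pairs over 0.1), and differently numbered ones at -0.39 to 0.30 (median -0.034, 19 of 90 over 0.1). Not every same-numbered pair was over 0.1, so the number was not taken as a pairing, and shared mice cannot be told from these values. For arrays the signal over background is the limit on depth, and Orc1, well above background in 15 of 18 samples, was the member closest to it.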

Other observations

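Some members start close to a gene on the opposite strand. In RefSeq, 8 of the 37 members with a promoter in the table (21.6%, against 10.9% of all genes there) had such a neighbour whose start lay within 500 bases, and 6 of these neighbours were tested. At oxygen 1, 1 neighbour fell and 1 rose in KO cells, and 2 fell and 0 rose in WT cells by limma's adjusted test. Over all genes 18.8% fell and 21.9% rose in KO and 18.5% and 21.0% in WT cells, and 6 genes are too few to set apart from these shares. The median log2 change of the neighbours was -0.043 in KO and -0.053 in WT cells. Ufd1, a protein degradation factor that starts 322 bases from Cdc45, stood at 0.15 in KO and 0.30 in WT cells, beside -1.17 and -1.31 for Cdc45. Tmem258, 281 bases from Fen1, stood at 0.038 in KO and 0.14 in WT cells, beside -1.52 and -1.59 for Fen1. Zswim9, 105 bases from Lig1, rose by 0.27 in KO cells (limma adjusted p 0.0441) and stood at 0.17 in WT cells, beside -1.53 and -1.59 for Lig1. Ap4m1, a vesicle adaptor subunit 138 bases from Mcm7, fell as Mcm7 did, by 0.97 in KO and 0.72 in WT cells (limma adjusted p 7.92e-07 and 2.82e-05). Prpf38a, a splicing factor 118 bases from Orc1, stood at -0.25 in KO cells (limma adjusted p 0.0820) and fell by 0.37 in WT cells (adjusted p 0.0143). Smyd4, 50 bases from Rpa1, stood at -0.12 in KO and -0.25 in WT cells. When starved, 0 of the 6 neighbours passed in either genotype, where 6.82% of all genes fell and 7.29% rose in KO and 6.36% and 6.6% in WT cells.

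Other marker lists were counted by the same test. Over all genes at oxygen 1, 18.8% fell and 21.9% rose in KO and 18.5% and 21.0% in WT cells. The shares when starved were 6.82% and 7.29% in KO and 6.36% and 6.6% in WT cells. Of 8 macrophage markers, 2 fell and 3 rose at oxygen 1 in each genotype, and 0 fell and 2 rose when starved. Of 7 stromal and endothelial markers, 1 fell in each genotype and 2 rose in KO and 3 in WT cells at oxygen 1, and 2 fell in starved KO and 3 in starved WT cells. Of 4 stem cell and progenitor markers, 1 fell in each genotype and 1 rose in KO and 2 in WT cells at oxygen 1, and 1 rose in each when starved. Of 2 dendritic cell markers tested, 0 passed in KO cells and 1 rose in WT cells at oxygen 1, and 0 passed when starved.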
